A study of Mus musculus with 8 samples.

Results

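Dpp4, Fap, Dpp7, Dpp8, Dpp9 and Prep are 6 of the 31053 genes listed in the files, chosen by their symbols as peptidases that cut peptides next to proline. All 6 were detected. Their UMI counts (unique molecular identifiers, each standing for 1 captured transcript) were read in dorsal skin of female BALB/c mice that the labels give as 14 to 16 weeks old. Skin was analysed after injection of PBMCsec, the secretome of irradiated human peripheral blood mononuclear cells, in 4 libraries and after injection of vehicle in 4 libraries. The labels name no genetic change, and they do not say whether or when the skin was wounded, at which time it was taken, or which control solution was injected. After the study's quality filter 6150 of 26231 barcodes were left, from 151 to 1659 per library, with library totals from 14753926 to 37880651 UMIs. Clustering without the 6 genes gave 34 clusters, which were named by marker genes. Of these cells 1488 were fibroblasts (FBs), 1590 hair follicle epithelium (HFs), 1022 keratinocytes (KCs), 838 T cells and other lymphocytes (TCs), 358 dendritic cells (DCs), 160 macrophages and 83 endothelial cells (ECs), and 429 cells stayed unnamed.

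Dpp4 is a membrane-bound exopeptidase, also known as CD26, which trims the amino end of chemokines, incretins and neuropeptides that carry proline or alanine next to that end. Fap is its closest relative, a membrane enzyme of activated fibroblasts that also cuts inside peptide chains, and it is known for cleaving denatured collagen and the plasmin inhibitor encoded by Serpinf2. Dpp7 works in intracellular vesicles, Dpp8 and Dpp9 are cytosolic dipeptidyl peptidases that hold the Nlrp1 inflammasome inactive, and Prep is a cytosolic endopeptidase of short peptides. Dpp4 is a known marker of a reticular and fascial FB lineage of mouse skin.

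Dpp4 and Fap lie next to each other on chromosome 2 of GRCm38, both on the minus strand, with Gcg, the gene of glucagon, between them. Dpp4 spans chr2:62330073-62412231 and Fap spans chr2:62500943-62574075, so that 88.7 kilobases separate them. Ifih1, an RNA sensor gene, follows Fap. The other members lie apart, with Dpp7 at chr2:25352276-25356359, Dpp8 at chr9:65032414-65082651, Dpp9 at chr17:56186807-56218905 and Prep at chr10:45067203-45167198.

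FBs held most transcripts of both surface enzymes. Of 6386 Dpp4 UMIs 89.7% lay in FBs, which were 24.2% of the cells, and of 2278 Fap UMIs 94.2% lay there. Dpp4 in FBs was 331 ± 170 CPM (UMIs of the gene per 1000000 UMIs of the cells, mean ± SD, n = 8 libraries), followed by DCs with 54.6 ± 35.4 (n = 8) and TCs with 14.8 ± 6.77 (n = 8). Macrophages (8.83 ± 8.17, n = 6), HFs (7.80 ± 6.08, n = 8) and KCs (6.19 ± 4.74, n = 8) came next in the order of Dpp4 levels, and ECs had no Dpp4 UMI. In 83 ECs this allows a share of cells with a UMI of up to 3.61%, at a median of 6672 UMIs per cell against 8978.5 in FBs. With a mitochondrial limit of 10% in place of 5%, 132 ECs held 3 Dpp4 UMIs (3.80 CPM, against 5.54 in KCs). Of 1022 KCs 5.68% had a Dpp4 UMI at a median of 10955. Fap in FBs was 175 ± 45.0 CPM (n = 8), with 8.98 ± 6.80 in DCs (n = 8) and under 3 CPM on average in macrophages, HFs, TCs and KCs. The 117 neutrophils, with 1 Dpp4 and 2 Fap UMIs, were left out of this order. So were 38 pericytes and smooth muscle cells, of which only 1 library had at least 10. With UMIs pooled over libraries their Fap was 60.2 CPM, above the 9.95 CPM of DCs.

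Dpp4 was higher in FBs than in DCs in 8 of 8 libraries, by 2.49 ± 1.21 (SD) on the scale of log2(CPM + 10). Fap was higher in FBs than in DCs in 8 of 8 libraries as well, by 3.33 ± 0.62. These differences were set against their spread over libraries in exact two-sided sign-flip permutation tests of 33 neighbouring pairs of classes over all members. With 8 libraries the smallest possible p is 0.00781, which both pairs reached, and the adjusted p was 0.0859 for each. No neighbouring pair of any member passed the adjusted threshold of 0.05. Among 33 pairs, a pair at the smallest p cannot pass unless enough other pairs also have a low p. A miss here thus does not show that the classes are alike. DCs were above TCs for Dpp4 in 7 of 8 libraries (exact permutation p = 0.0312, adjusted p = 0.129), while TCs and macrophages (exact permutation p = 0.281) and HFs and KCs (exact permutation p = 0.641) did not differ beyond their spread.

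**Figure D1:**
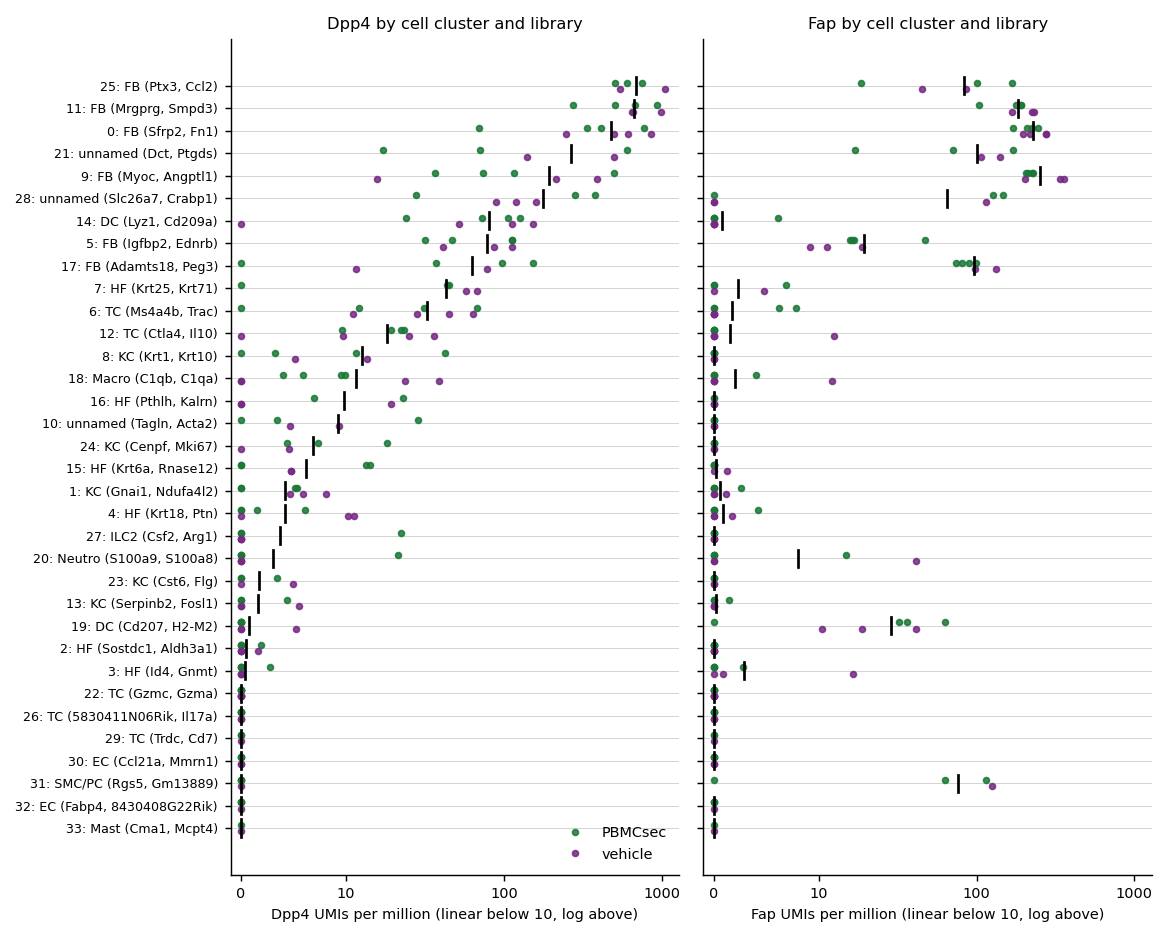
CPM of Dpp4 (left) and Fap (right) in each cluster (rows, with class and 2 leading genes, ordered by mean Dpp4) and library (points, with at least 5 cells of the cluster), with the mean as a black line and the axis linear below 10 and logarithmic above. FB clusters 0, 11 and 25 lead for Dpp4 and FB clusters 9, 0 and 11 lead for Fap, and Fap points above 0 recur in DC cluster 19, where Dpp4 is near 0.

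Among FBs, Dpp4 was highest in 3 clusters that shared the markers Pi16, Cd248, Sema3c and Anxa3, of the fascia-type lineage (Pi16-type clusters). Pi16 and Cd248 were also markers of cluster 17, and Cd248 of cluster 9, which were both lower in Dpp4, while Sema3c and Anxa3 were not. Cluster 11, led by Mrgprg, Smpd3 and Pi16, had 673 ± 243 CPM (n = 7 libraries with at least 5 cells), and a Dpp4 UMI was found in 96.2% of its 240 cells (exact 95% interval 93.0 to 98.3%). Cluster 25, with the inflammatory genes Ptx3, Ccl2 and Il6, had 692 ± 221 CPM (n = 5), and 56.0% of its 91 cells came from PBMCsec library 3. Cluster 0, led by Sfrp2, Fn1 and Ace, had 475 ± 265 CPM (n = 8). The 3 means lay within the spread of one another, and over the 5 libraries that all 3 clusters share they were 754 ± 203 in cluster 11, 692 ± 221 in cluster 25 and 575 ± 227 in cluster 0. Such intervals cover counting error only, and cells of 1 library are not independent.

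The remaining FB clusters were lower in Dpp4. Cluster 9, with Mgp, Angptl1 and Apod, had 192 ± 186 CPM (n = 7), and its libraries ranged from 15.6 to 499. Cluster 5, follicle-associated dermal FBs with Ednrb and Col11a1, had 77.7 ± 36.6 (n = 7), and cluster 17, with Cxcl12, Tnmd and Lepr, had 62.6 ± 57.7 (n = 6). Of the FBs with a UMI of Pi16, a secreted peptidase inhibitor of the fascia-type lineage, 77.1% of 1292 had a Dpp4 UMI, against 18.9% of 196 without one, at median depths of 9157.5 and 7894 UMIs. Of the FBs with a UMI of Wif1, an inhibitor of Wnt signalling in follicle-associated dermal cells, 18.4% of 125 had Dpp4, against 74.1% of 1363. Clusters were drawn from the same cells, so these levels are a description without a test.

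Fap followed another order over the FB clusters. It was highest in cluster 9 at 253 ± 65.8 CPM (n = 7) and in cluster 0 at 227 ± 37.5 (n = 8), followed by cluster 11 at 184 ± 42.3 (n = 7). Cluster 17 had 95.7 ± 20.6 CPM (n = 6) and cluster 25 had 83.2 ± 57.1 (n = 5). The follicle-associated cluster 5 was lowest with 19.3 ± 12.7 (n = 7), where 11.9% of 270 cells had a Fap UMI (8.25 to 16.3%). Cluster 9 thus led for Fap and came after the 3 Pi16-type clusters for Dpp4. The order of clusters 17 and 25 for Fap turned with UMIs pooled over libraries (103 and 121 CPM).

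The UMI ratio of Dpp4 to Fap, read only between groups of cells, was 2.67 over all FBs. With UMIs pooled over libraries it was 0.838 in cluster 17, 1.10 in cluster 9, 2.90 in cluster 0, 4.35 in cluster 11, 5.03 in the follicle-associated cluster 5, where both genes were low, and 6.14 in cluster 25. The ratio varied widely between libraries, from 0.0435 to 2.24 in cluster 9, from 1.44 to 5.92 in cluster 11, from 1.0 to 9.50 in cluster 5 and from 4.46 to 33 in cluster 25. In cluster 9 the median over 7 libraries was 0.509, below the pooled 1.10, and PBMCsec library 3 had the highest ratio and the most Dpp4 UMIs (329). Within PBMCsec library 3 cluster 11 (4.88) was above cluster 25 (4.46). Both transcripts were found in 714 of 1488 FBs (48.0%), Dpp4 alone in 319, Fap alone in 168 and neither in 287. Cells with Fap alone made up 33.7% of cluster 17 and 24.1% of cluster 9, but 2.08% of cluster 11 and 1.10% of cluster 25. A cell without a UMI can still hold transcripts: after thinning to 1000 UMIs per cell, the share of FBs with a UMI fell from 69.4% to 30.8% for Dpp4 and from 59.3% to 15.0% for Fap (3 shallower FBs left out).

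**Figure D2:**
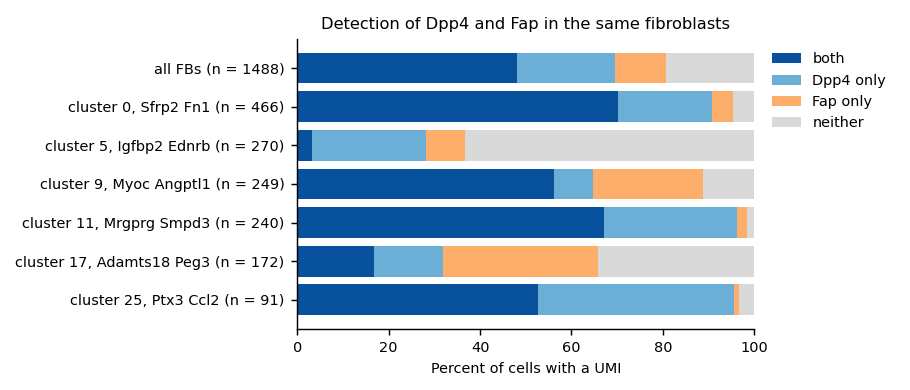
Percent of FBs with a UMI of both Dpp4 and Fap, of 1 of them or of neither, in all FBs and in each FB cluster (stacked bars, with the number of cells n and 2 leading genes). Cells with both make up 70.2% of cluster 0 and 3.33% of cluster 5, and cells with Fap alone are most frequent in cluster 17 (33.7%).

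Across all 34 clusters the genes whose levels were most like those of Dpp4 were Opcml, Dnm1, D630033O11Rik, Sfrp2 and Larp6. Their Pearson r was 0.89 each, over 9013 genes compared by log2(CPM + 10), and the points share libraries and depth. Those most like Fap were Islr (r = 0.95), Klhl13 (0.94), C1s1, Zfhx4 and Ddr2 (0.93 each). Ddr2 encodes a collagen receptor and C1s1 a complement protease. Dpp4 and Fap correlated with each other at r = 0.83 over these 34 clusters, which join FBs with classes low in both genes. Among the FB clusters alone the orders of Dpp4 and Fap differed, as given above.

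The level of Dpp4 in FBs varied between libraries of the same treatment. It was 296, 66.1, 584 and 275 CPM in PBMCsec libraries 1 to 4, and 422, 165, 499 and 342 CPM in vehicle libraries 1 to 4. The libraries numbered 2 were the lowest of each group. Fap was 170, 169, 166 and 118 CPM in the PBMCsec libraries and 277, 171, 166 and 162 CPM in the vehicle libraries, where number 4 was the lowest in each group.

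The share of Pi16-type cells among FBs ranged from 37.7% to 67.9% over libraries. Within the Pi16-type clusters Dpp4 still was 111 CPM in PBMCsec library 2 and 219 CPM in vehicle library 2, against 461 to 914 CPM in the other 6 libraries. These clusters held 26 and 12 cells in the libraries numbered 2. Of 8 companion genes of Dpp4-type FBs, looked at in the same cells after the values of Dpp4 were seen, Anxa3 was also lower in both libraries than in the other 6 (204 and 523 against 669 to 1434 CPM). Pi16, Cd248, Sema3c, Ackr3, Cd55, Ly6c1 and En1 were not lower in both, nor was Fap (204 and 228 against 137 to 252 CPM). PBMCsec library 2 alone was the lowest of all libraries for Pi16 (817 CPM), Sema3c (145), Ackr3 (255), Cd55 (370), Ly6c1 (706) and En1 (38.3). It was not the lowest for Cd248 (659), and it was the highest for the FB genes Dcn (16038.5) and Pdgfra (681). Vehicle library 2 lay within the range of the other libraries for Pi16, Sema3c, Ackr3, Cd55, Ly6c1 and En1. What the library number stands for is not given in the labels, and its part in the level of Dpp4 was not tested.

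**Figure D3:**
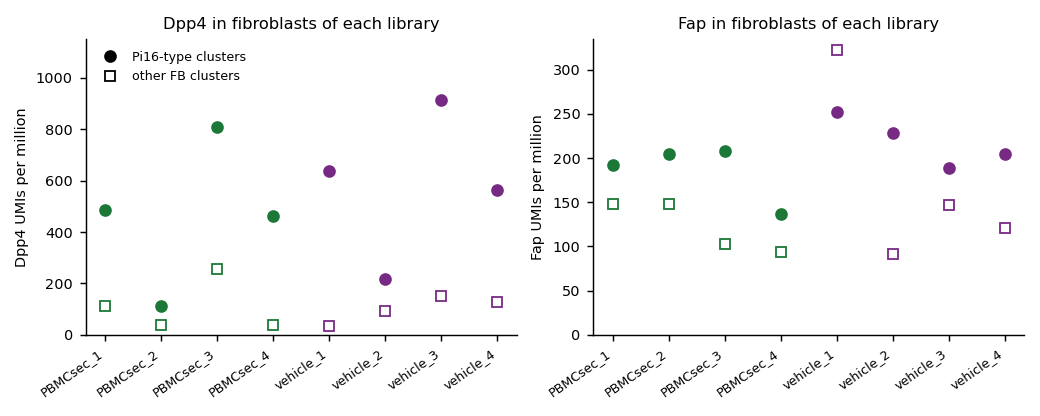
CPM of Dpp4 (left) and Fap (right) in FBs of each library (x axis; green PBMCsec, purple vehicle), in the Pi16-type clusters (filled circles) and the other FB clusters (open squares). Dpp4 in Pi16-type FBs is lowest in the libraries numbered 2 (111 and 219) and lies between 461 and 914 in the other libraries, while Fap there lies between 137 and 252.

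In DCs the 2 surface enzymes divided over different clusters. Cluster 14, dermal DCs with Cd209a and Mgl2, had a Dpp4 UMI in 37.6% of 234 cells (31.4 to 44.2%) and 80.9 ± 53.0 CPM (n = 8 libraries), but a single Fap UMI. Cluster 19, Langerhans-type cells with Cd207, had a Fap UMI in 21.0% of 124 cells (14.2 to 29.2%) and 28.8 ± 20.9 CPM (n = 7), but a single Dpp4 UMI. The median depth was 8312.5 and 7366 UMIs per cell.

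FB transcripts were present in some of these cells. Of 190 dermal DCs without a UMI of Dcn, Pdgfra or Lum, which FBs express, 32.6% had Dpp4, against 59.1% of 44 with one. Of 106 Langerhans-type cells without a UMI of Dcn, Pdgfra or Lum, 18.9% had Fap, against 33.3% of 18 with one. Of 85 Langerhans-type cells without a UMI of Col1a1, Col1a2 or Col3a1, 18.8% had Fap, against 25.6% of 39 with one. Split by these collagens, 31.7% of 142 dermal DCs without a UMI had Dpp4, against 46.7% of 92 with one. Within cluster 14, 41.7% of 132 cells with a Cd209a UMI had Dpp4 (84.6 CPM), against 32.4% of 102 without (105 CPM). Dpp4 was found in 62.0% of 50 cells of cluster 14 with a UMI of Xcr1 or Clec9a, markers of cross-presenting DCs, and in 31.0% of 184 without. These 50 cells held 84 of the 180 Dpp4 UMIs of the cluster. The cells with these markers were deeper, with a median of 11383 against 7814.5 UMIs. Their Dpp4 level, scaled to depth, was 153 CPM, against 69.2 CPM in the cells without.

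In TCs Dpp4, known as a costimulatory surface molecule of helper T cells, was found in 4.53% of 838 cells (3.23 to 6.17%). Its 50 UMIs lay in the alpha-beta T cells of cluster 6 (29 UMIs, 7.52% of 266 cells), in cluster 12 with Ctla4 and Icos (20 UMIs, 7.17% of 237 cells) and, as 1 UMI, in the lymphoid cells with Il1rl1 and Il13. No Dpp4 UMI was counted in the 102 cytotoxic cells of cluster 22 or in the gamma-delta T cells of cluster 26 (90 cells) and cluster 29 (53 cells). These counts allow shares of up to 2.94%, 3.33% and 5.66%, and the median depth of 4176.5, 4045 and 3530 UMIs was above the 2902.5 of cluster 6. Within cluster 6, 11.4% of 140 cells with a Cd4 UMI had Dpp4 (6.68 to 17.9%), against 3.17% of 126 without (0.872 to 7.93%). Their Dpp4 levels were 45.5 and 11.3 CPM, at median depths of 3375.5 and 2526 UMIs. Split by Cd8a or Cd8b1, 8.57% of 35 cells with a UMI had Dpp4 (1.80 to 23.1%), against 7.36% of 231 without (4.35 to 11.5%). The Dpp4 levels of these cells were 25.8 CPM with a Cd8a or Cd8b1 UMI and 33.1 CPM without. The share with a UMI rests on 3 cells, too few to tell whether it was lower or higher. Only 3 Fap UMIs were counted in all TCs.

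In the hair follicle Dpp4 was found in the inner root sheath, the keratin-rich layer around the growing hair. Cluster 7, with Krt25, Krt71 and Tchh, had a Dpp4 UMI in 28.1% of 263 cells (22.8 to 34.0%) and 42.7 ± 25.8 CPM (n = 5 libraries). The other 5 HF clusters had one in 0.641% to 10.6% of cells, the median depth being 9702 UMIs in cluster 7 and 9218 in the cluster with 0.641%. In cluster 7, 41.3% of 92 cells with a Krt71 UMI had Dpp4, against 21.1% of 171 without. Their Dpp4 levels were 88.9 and 33.4 CPM, at median depths of 11529.5 and 9028 UMIs. Of the 146 cells without a UMI of Dcn, Pdgfra or Lum, 27.4% had Dpp4. Split by Krt25, 30.9% of 188 cells with a UMI had Dpp4, against 21.3% of 75 without, at median depths of 11383 and 2338 UMIs. The Dpp4 levels of these cells were 55.3 CPM with a Krt25 UMI and 54.6 CPM without.

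Both enzymes were also found in 2 unnamed clusters. Cluster 28, with Crabp1 and Wif1, had Dpp4 in 46.3% and Fap in 29.9% of 67 cells. Of its 14 cells without a UMI of Dcn, Pdgfra or Lum 8 had Dpp4 and 4 had Fap. Cluster 21, whose 114 cells had a median of only 1360 UMIs, had Dpp4 in 30.7% and Fap in 17.5% of cells. Its Dpp4 UMIs all lay in cells with a UMI of Dcn, Pdgfra or Lum (35 of 74 cells, against 0 of 40 without), as did 24 of its 25 Fap UMIs. Fap was also counted in pericytes and smooth muscle cells (12 UMIs, 15.8% of 38 cells), which had no Dpp4 UMI. All 6 cells with Fap lacked a UMI of Dcn, Pdgfra or Lum. In this cluster Fap averaged 75.8 ± 57.3 CPM (n = 4 libraries with at least 5 cells).

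The intracellular enzymes were spread over more classes. Dpp7 was highest in FBs with 32.0 ± 8.39 CPM (n = 8 libraries) and in macrophages with 25.9 ± 7.22 (n = 6), and FBs held 54.6% of its 784 UMIs. DCs (11.8 ± 4.90) and HFs (11.4 ± 1.49) followed, then TCs (5.46 ± 3.72) and KCs (5.10 ± 3.84, n = 8 each). FBs and macrophages did not differ beyond their spread (exact permutation p = 0.0938, adjusted p = 0.281), nor did DCs and HFs (exact permutation p = 1.0). HFs were above TCs in 8 of 8 libraries (exact permutation p = 0.00781, adjusted p = 0.0859). Within FBs, Dpp7 was 43.4 ± 14.7 CPM in cluster 9 and 43.7 ± 19.8 in cluster 5, so that it was as high in the follicle-associated cluster in which Fap was lowest.

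Dpp8 was detected in all these classes. It averaged from 46.9 ± 19.5 CPM in FBs to 75.4 ± 31.3 in ECs (n = 6), with 48.5 ± 11.7 in HFs, 54.6 ± 19.7 in TCs, 56.8 ± 30.8 in DCs and 57.7 ± 36.3 in macrophages (n = 6; n = 8 for the others). KCs were lower at 28.3 ± 5.05 CPM, below FBs in 7 of 8 libraries (exact permutation p = 0.0234, adjusted p = 0.129). Within TCs it was 83.8 ± 47.9 CPM in the alpha-beta T cells of cluster 6 and 32.3 ± 13.1 in cluster 12 with Ctla4 and Icos.

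Dpp9 lay between 12.9 ± 7.62 CPM in DCs and 32.0 ± 26.3 in ECs (n = 6). No neighbouring classes differed in Dpp9 beyond their spread, the lowest exact permutation p being 0.0547 for FBs above KCs (23.6 ± 6.97 against 14.5 ± 6.57 CPM). Prep was highest in HFs with 28.8 ± 6.66 CPM and lowest in DCs with 10.2 ± 6.57. KCs (21.1 ± 6.44) were above FBs (15.0 ± 9.13) for Prep in 7 of 8 libraries (exact permutation p = 0.0156, adjusted p = 0.129).

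**Figure D4:**
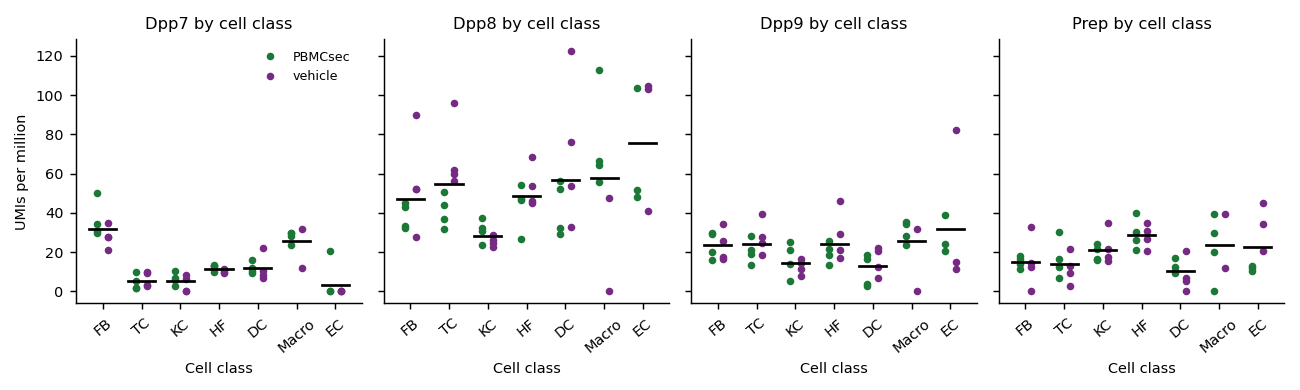
CPM of Dpp7, Dpp8, Dpp9 and Prep by cell class in each library with at least 10 cells of the class (points; green PBMCsec, purple vehicle), with the mean as a line. Dpp7 is highest in FBs and macrophages, KCs are lowest for Dpp8 (28.3 on average), and the points of Dpp9 and Prep overlap between most classes.

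The effect of PBMCsec was tested in each class with at least 10 cells in every library, on counts summed per library. In FBs edgeR called 0 of 9418 genes (0%) at an adjusted p of 0.05, and 212 (2.25%) had an unadjusted p under 0.05. DESeq2 called 0 as well. All 6 members passed the filter on low counts, none of them was called, and none had an unadjusted p under 0.05. In none of the 6 did the values of the groups stand apart, as they did in 1.58% of all genes tested. Whether each library came from a separate mouse is not stated in the labels, so the p-values measure only the spread between these libraries, which may be technical.

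On the TMM scale, which evens out library composition, Dpp4 in FBs was 307, 67.8, 590 and 291 CPM after PBMCsec and 409, 174, 475 and 341 CPM after vehicle. The groups overlapped over most of their range. The log2 fold change, PBMCsec against vehicle, was -0.16 ± 0.48 (SE; edgeR adjusted p = 1.0). Without the libraries numbered 2, an alternative added after the data were seen, it was -0.04 ± 0.30, and in Pi16-type FBs alone -0.27 ± 0.46. It turned to 0.16 without PBMCsec library 2 alone and to 0.03 without vehicle library 3 alone, and was -0.66 without PBMCsec library 3.

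Fap in FBs was 176, 174, 167 and 125 CPM after PBMCsec and 269, 180, 158 and 161 CPM after vehicle. Its log2 fold change was -0.24 ± 0.23 (SE; edgeR adjusted p = 1.0), with vehicle library 1 above all others. In the FBs of that library (28 cells) 20.3% of the UMIs belonged to the genes Gm42418, Gm17056 and Gm26917, which were removed before scaling, against 0.376% to 1.93% in the other libraries. Their part in its values was not tested. Without vehicle library 1 the log2 fold change of Fap was -0.04, and without PBMCsec library 4 it was -0.13.

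The other members in FBs differed by -0.42 ± 0.26 (SE) for Dpp8, 0.33 ± 0.25 for Dpp7, 0.22 ± 0.42 for Prep and 0.11 ± 0.31 for Dpp9 on the log2 scale. Single libraries moved these values, Dpp8 to -0.23 without vehicle library 1, Dpp7 to 0.19 without PBMCsec library 2 and 0.50 without vehicle library 4, and Prep to 0.04 without vehicle library 1 and 0.42 without vehicle library 2. Without doublet-like cells Dpp8 was at -0.69 (edgeR unadjusted p = 0.0233, adjusted p = 1.0). Dpp8 was 44.6, 33.1, 45.6 and 35.1 CPM after PBMCsec and 86.8, 29.1, 49.5 and 52.2 CPM after vehicle, its highest value again being in vehicle library 1. Dpp7 was 31.0, 51.2, 34.6 and 32.4 CPM after PBMCsec and 20.7, 29.1, 26.6 and 34.8 CPM after vehicle. Its highest value was in PBMCsec library 2, where Dpp4 was lowest.

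In TCs only Dpp8 had enough counts to be tested, the other members having from 3 (Fap) to 80 UMIs (Dpp9). It was 48.5, 35.9, 54.1 and 40.8 CPM after PBMCsec and 97.5, 67.0, 62.7 and 61.7 CPM after vehicle. The groups did not overlap, every PBMCsec library being below every vehicle library. Of the 4744 genes tested 2.53% had groups that did not overlap, in either direction. The log2 fold change was -0.66 ± 0.26 (SE) with an unadjusted p of 0.0206, a level reached by 180 genes (3.79%). The edgeR adjusted p was 1.0, so the difference did not pass, and edgeR and DESeq2 called 0 genes.

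These Dpp8 values rest on 175 UMIs in 838 cells, with 11 to 32 UMIs per library. Without vehicle library 1 the log2 fold change was -0.48 (edgeR unadjusted p = 0.0813, adjusted p = 1.0), and with a mitochondrial limit of 10% it was -0.42 (edgeR unadjusted p = 0.119, adjusted p = 1.0). Leaving out any other library gave -0.77 to -0.56, and without doublet-like cells it was -0.85 (edgeR unadjusted p = 0.00973, adjusted p = 0.943). When libraries of equal number were treated as pairs (replicate block), edgeR called 9 of 5608 genes, and Dpp8 was not among them (log2 fold change -0.66, adjusted p = 0.599). The lymphoid cells with Il1rl1 and Il13 made up 25.9% of the TCs of vehicle library 1 and 24.0% of those of vehicle library 4. Without them the unscaled levels of Dpp8 were 41.7, 30.9, 46.9 and 37.9 CPM after PBMCsec. After vehicle they were 112, 65.9, 61.6 and 47.9 CPM, still without overlap, the closest values being 46.9 and 47.9. In vehicle library 4 the level was 56.0 CPM with these cells, and 12 UMIs of Dpp8 were left without them. Dpp8 averaged 32.3 CPM in cluster 12 against 83.8 in cluster 6. Cluster 12 held 38 of 106, 30 of 97, 56 of 197 and 30 of 90 TCs after PBMCsec. After vehicle it held 11 of 58, 13 of 54, 35 of 140 and 24 of 96, a smaller share in every library. Cluster 26 was also low in Dpp8 at 26.8 CPM. It held 10, 13, 26 and 8 TCs after PBMCsec and 2, 6, 21 and 4 after vehicle. Cluster 6 held 30, 32, 57 and 28 TCs after PBMCsec and 23, 24, 40 and 32 after vehicle. As shares of the TCs of a library, both clusters overlapped between treatments. The part of this cell mix in the Dpp8 values was not tested.

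**Figure D5:**
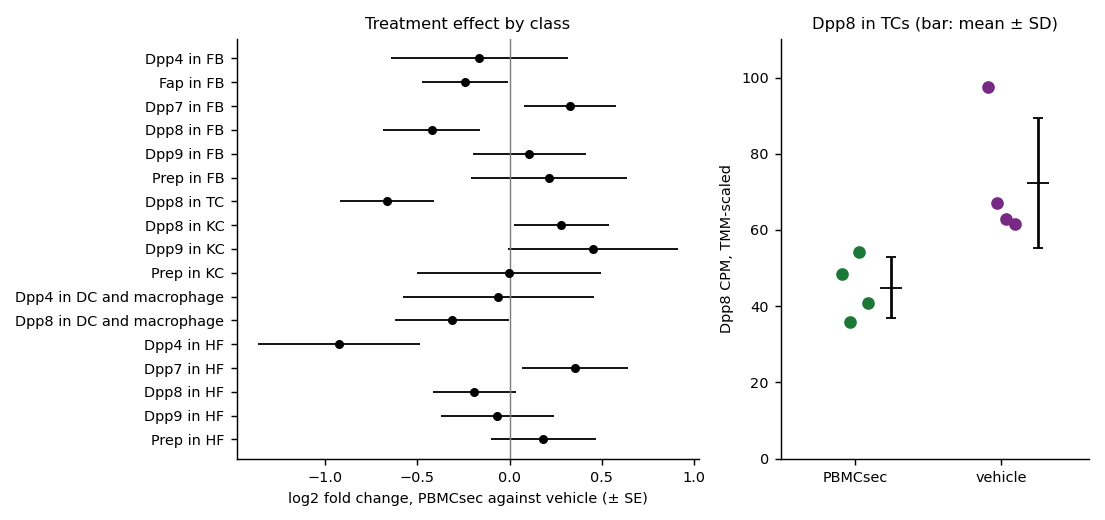
Left: log2 fold change of each member, PBMCsec against vehicle, in each class where it passed the filter (points, with edgeR standard errors). Right: Dpp8 in TCs, TMM-scaled CPM of the 4 libraries of each group with mean ± SD. The PBMCsec libraries lie between 35.9 and 54.1 and the vehicle libraries between 61.7 and 97.5, and no member in any class passed the adjusted threshold.

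The effects in FBs and TCs were compared directly for the 5 members with at least 10 UMIs in TCs. The difference between the effects was within the spread for each of them, with exact permutation p from 0.20 (Dpp9) to 0.971 (Prep) and adjusted p of at least 0.619. For Dpp8 the effect on log2 CPM was -0.36 in FBs and -0.62 in TCs (exact permutation p = 0.371). With 4 against 4 libraries the smallest exact p is 0.0286.

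The share of cells with a UMI also overlapped between treatments. Of FBs, 59.8% ± 20.7 (SD, n = 4 libraries) had Dpp4 after PBMCsec and 62.5% ± 11.6 after vehicle (exact permutation p = 0.80). After thinning to 1000 UMIs these shares were 21.3% ± 14.7 and 26.7% ± 6.56. For Fap in FBs they were 58.8% ± 4.16 and 58.6% ± 11.2 (exact permutation p = 0.914), thinned 13.4% ± 2.81 and 12.2% ± 5.30. For Dpp4 in TCs they were 4.91% ± 3.68 and 5.51% ± 1.92 (exact permutation p = 0.743), thinned 0.622% ± 0.472 and 1.73% ± 1.56 (8 shallower TCs left out). The adjusted p was 0.914 for each of the 3 shares.

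In HFs 5 members passed the filter, all but Fap, and none was called (0% of 9736 genes, also 0 by DESeq2, and 3.65% with an unadjusted p under 0.05). Dpp4 was 2.69, 3.01, 8.06 and 10.1 CPM after PBMCsec and 0, 9.01, 17.9 and 11.9 CPM after vehicle, with overlapping groups and only 10 HFs in vehicle library 1. Its log2 fold change was -0.93 ± 0.44 (SE; edgeR unadjusted p = 0.0577, adjusted p = 1.0) and -0.53 without vehicle library 3. Without PBMCsec library 4 it was -1.27 (edgeR unadjusted p = 0.0234, adjusted p = 0.540), and without vehicle library 1 it was -1.0 (edgeR unadjusted p = 0.0403, adjusted p = 0.993). Inner root sheath cells made up 8.03%, 9.76%, 14.1% and 16.5% of HFs after PBMCsec and 10%, 9.52%, 21.2% and 15.7% after vehicle, so the library with the highest Dpp4 also held the largest share of them. Within inner root sheath cells unscaled Dpp4 was 0, 0, 44.8 and 43.8 CPM after PBMCsec, from 11, 4, 42 and 40 cells. After vehicle it was 0, 135, 57.4 and 67.6 CPM, from 1, 4, 124 and 37 cells. The part of the inner root sheath share in the Dpp4 values of HFs was not tested. Dpp7 (0.36), Prep (0.18), Dpp9 (-0.07) and Dpp8 (-0.19) all had an unadjusted edgeR p above 0.2 in HFs, and in none of the 5 members did the groups stand apart (2.35% of all genes).

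In DCs and macrophages together, Dpp4 and Dpp8 passed the filter, while Fap, Dpp9, Dpp7 and Prep with 31 to 63 UMIs did not. Dpp4 was 66.2, 42.6, 62.7 and 14.6 CPM after PBMCsec and 83.8, 0, 63.4 and 29.5 CPM after vehicle, where the library at 0 held 15 cells. The log2 fold change of Dpp4 was -0.06 ± 0.52 (SE) and that of Dpp8 was -0.31 ± 0.31, with overlapping groups for both and edgeR calling 0 of 5586 genes (0%). In that class 4.65% of genes had an unadjusted p under 0.05 and in 2.74% the groups stood apart, and DESeq2 called 7. In KCs Dpp8, Dpp9 and Prep passed the filter and Dpp4, Dpp7 and Fap (63, 67 and 3 UMIs) did not. The tested values overlapped between treatments, with log2 fold changes of 0.28 ± 0.26 for Dpp8, 0.45 ± 0.46 for Dpp9 and 0.00 ± 0.50 for Prep. Dpp9 in KCs moved to 0.0020 without PBMCsec library 4 and to 0.79 without PBMCsec library 1. Again edgeR called 0 of 8180 genes (0%; 1.45% at an unadjusted p under 0.05, 1.39% with groups apart), and DESeq2 called 1, which was not a member.

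Other genes of the pathway were read from lists in FBs, where the median log2 fold change of all genes tested was 0.00. Of 19 other proline-directed and related peptidases, such as the angiotensin-converting enzyme gene Ace, 17 were tested, 10 were lower and 7 higher (median -0.06), and none had an unadjusted p under 0.05. Ace was 298 ± 83.6 CPM after PBMCsec and 262 ± 125 after vehicle (SD, n = 4), Anpep, an aminopeptidase, 208 ± 16.9 and 238 ± 74.5, and Npepps 97.2 ± 23.0 and 133 ± 58.7. Of the collagen substrates of Fap, Col1a1, Col1a2 and Col3a1 were tested, with log2 fold changes of -0.06, -0.02 and -0.28.

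Of the tested genes for peptides that Dpp4 can cut (5 of 15), Cxcl12 and Ccl11, chemokines of FBs, differed by -0.12 and 0.23 on the log2 scale. Cxcl2 averaged 395 ± 456 CPM over the PBMCsec libraries of FBs and 17.7 ± 11.9 over the vehicle libraries (log2 fold change 4.26 with an SE of 1.05, edgeR unadjusted p = 0.0015, adjusted p = 1.0). In TCs Cxcl2 was 38.2 ± 66.0 and 262 ± 273 CPM (log2 fold change -2.60, edgeR unadjusted p = 0.0109, adjusted p = 1.0). Ccl5, a T cell chemokine, was 1542 ± 744 CPM in TCs after PBMCsec and 434 ± 234 after vehicle (log2 fold change 1.83, edgeR adjusted p = 0.323). Of 7 ligands and partners of Dpp4, 4 were tested in FBs, among them Fn1, the gene of fibronectin, at a log2 fold change of -0.83 ± 0.37 (SE; edgeR unadjusted p = 0.0407, adjusted p = 1.0). The 8 companions of Dpp4-type FBs were 6 lower and 2 higher (median -0.26), and of the 8 companions of Fap in activated FBs 5 were lower and 3 higher (median -0.21). Of the inflammasome genes 4 of 8 were tested in FBs, 1 lower and 3 higher (median 0.07). Ifih1, the only tested neighbour on chromosome 2, differed by -0.28. Outside FBs, listed genes with an unadjusted p under 0.05 were also Apeh (-0.86) and Ly6c1 (1.0) in TCs, Pyy (-2.37) in KCs, Tpp1 (0.90), Ccl5 (2.24) and Il1b (0.78) in DCs and macrophages, and Ctsc (-0.86), Ifih1 (0.77) and Acta2 (3.61) in HFs, as log2 fold changes. None of the listed genes was called in any class.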

How the data were processed

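The deposited files hold unnormalized UMI counts, made by the authors from 10x Genomics 3′ libraries aligned to mm10. The submitters' processing notes name Cell Ranger 3.0.2. The study's limits were applied: 500 to 4000 genes, no more than 20000 UMIs and no more than 5% of UMIs from mitochondrial genes, with Gm42418, Gm17056 and Gm26917 dropped. No doublet caller was run. Cells with UMIs of 2 or more markers of another class were termed doublet-like, which alone does not show a doublet. Barcodes found in more than 1 library numbered 4 among kept cells. Cells were integrated and clustered with Seurat 5.3.0 (R 4.3.3; 2000 variable features without the members and 19 related peptidases, 30 dimensions, resolution 1). Naming a cluster needed 3 markers, each found in 25% or more of the cells and 2-fold or more above the remaining cells in CPM, and the T cell, NK and ILC2-type clusters were joined as TCs. For each class, UMIs were added up by library and compared in edgeR 4.0.16 with the quasi-likelihood test after filterByExpr and TMM scaling, and p-values were adjusted over all genes tested (Benjamini-Hochberg); standard errors were derived from the F statistic. DESeq2 1.42.0 was an alternative. Tested on simulated FB counts, the edgeR step recovered 46% of 2-fold and 99% of 4-fold changes, with 7 false calls among 9450 genes. The changes were set among the most abundant genes, and all genes were given a single common dispersion. Genes that vary more between libraries or have lower counts were not covered by these rates. Intervals are exact binomial (95%), and a count of 0 allows up to 3. Permutation tests were exact and two-sided (numpy 2.4.6, Python 3.11.15). The 3′ UMIs give no comparison of levels between genes.

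Library totals lay between 14753926 and 37880651 UMIs. For libraries of equal number, the deviations from the group means were correlated across genes. These correlations were all over 0.1 in TCs (0.36, 0.17, 0.13 and 0.41) and in no other class. In DCs and macrophages they were 0.31, 0.085, 0.28 and 0.28. In both classes each PBMCsec library correlated best with the vehicle library of its own number. The main tests used no pairing in any class, and the fit with pairs was an alternative in each tested class. The members and gene lists were chosen with earlier results of these data known. Of each other list, the text names up to 4 genes with the highest CPM in the class, and those with an unadjusted p under 0.05. Positions are from GENCODE release M21, matched by Ensembl identifier.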

Additional observations from a re-analysis of the deposited data

Results flagged for a closer look

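Of 40 groups of 4 libraries, 3 held a library that stood far from the other 3, and chance alone flags about 1 in 20 such groups. Fap in FBs of PBMCsec library 4 was 125 CPM (TMM-scaled), below the 167 to 176 CPM of the other PBMCsec libraries. Dpp8 in TCs of vehicle library 1 was 97.5 CPM, above the 61.7 to 67.0 CPM of the other vehicle libraries. Prep in KCs of vehicle library 2 was 36.7 CPM, above 16.5 to 19.8 CPM in the others, from 33 cells.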

How the results depend on the processing

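No member was called in any class under any alternative, and of 252 recomputed member values 227 kept their direction. Values that turned were Dpp9 in FBs (-0.0022 with the replicate block, -0.074 without doublet-like cells), Dpp9 in KCs (-0.076 with a 10% mitochondrial limit), Prep in KCs (0.0038 with no filter on low counts, 0.057 with the block, 0.015 without doublet-like cells, 0.12 with the 10% limit), Dpp4 in DCs and macrophages (0.019 by DESeq2, 0.0058 with no filter), Dpp8 in HFs (0.10 without doublet-like cells) and Dpp9 in HFs (0.046 with the block). Leaving out 1 library gave -0.66 to 0.16 for Dpp4 and -0.11 to 0.25 for Dpp9 in FBs, -0.19 to 0.28 for Prep in KCs, -0.26 to 0.27 for Dpp4 in DCs and macrophages, and -0.27 to 0.068 for Dpp9 and -0.031 to 0.37 for Prep in HFs. Members that kept their direction without any 1 library ranged from -0.32 to -0.040 for Fap, 0.19 to 0.50 for Dpp7, -0.53 to -0.23 for Dpp8 and 0.038 to 0.42 for Prep in FBs, -0.77 to -0.48 for Dpp8 in TCs, 0.22 to 0.37 for Dpp8 and 0.0020 to 0.79 for Dpp9 in KCs, -0.45 to -0.044 for Dpp8 in DCs and macrophages, and -1.27 to -0.53 for Dpp4, 0.29 to 0.48 for Dpp7 and -0.29 to -0.031 for Dpp8 in HFs. The difference in share, PBMCsec minus vehicle, moved between -10.1 and 6.58 percentage points for Dpp4 in FBs, -4.17 and 4.49 for Fap in FBs, and -2.06 and 0.52 for Dpp4 in TCs. Genes called over all genes rose from 0 in TCs to 44 with no filter, 9 with the block, 2 without doublet-like cells and 0 to 2 without 1 library. In KCs they were 1 by DESeq2, 3 with no filter and 0 to 3 without 1 library. In DCs and macrophages they were 7 by DESeq2, 114 with no filter, 7 with the block and 0 to 1 without 1 library, and in HFs 0 to 1 without 1 library. The cause was not tested. The paired fit changed no member's call.

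The alternative without doublet-like cells, set by marker UMIs of another class alone, removed 35.9% of cells (56.1% of FBs). Depth limits the low members: in TCs 5 of 6 were not tested, vehicle library 2 had 22 FBs, and 2-fold changes in FBs could be missed. The labels give neither the time point nor the control solution of a library, and their part in the values was not tested. No pair of neighbouring classes passed with a pseudocount of 1 CPM, and without 1 library number the tests were too small to pass (smallest exact permutation p = 0.0312).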
